A study of Mus musculus with 3 samples.

Results

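The Fc gamma receptors are the cell surface receptors for the constant part of immunoglobulin G. The deposited table was searched for the symbols of the mouse family, Fcgr1, Fcgr2b, Fcgr3 and Fcgr4, and all 4 were found among its 24067 genes. RNA was measured in primary mouse pre-osteoclasts, mononuclear precursors cultured with MCSF and RANKL for 2 days, in 3 groups with 1 library each. The groups were cells with Ift88 shRNA under orbital shear stress for 24 hours, cells with control shRNA under the same shear, and cells with control shRNA and no shear. The first group is labelled as an Ift88 knockdown and both control groups as wild type, and how the shRNA was delivered is not stated. No library of unsheared knockdown cells entered the comparisons, so a knockdown difference that needs shear and one that does not cannot be told apart. The mouse strain, sex and age, and the number of animals behind a library, are not given in the labels.

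Fcgr1, Fcgr3 and Fcgr4 are activating receptors. They signal through a shared partner, the Fc receptor gamma chain encoded by Fcer1g, whose tyrosine motif (ITAM) is phosphorylated by Src-family kinases and then recruits the kinase Syk. Fcgr2b carries an inhibitory motif (ITIM) in its own tail and recruits the lipid phosphatase SHIP1, encoded by Inpp5d, which ends the signal. In mouse osteoclast precursors the gamma chain also serves as a co-stimulatory adaptor alongside RANKL, and macrophages use the same receptors to take up antibody-coated particles.

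Fcgr2b, Fcgr4 and Fcgr3 lie in that order on chromosome 1, and Fcgr1 lies on chromosome 3. In GRCm38, Fcgr1 (gene ID 14129) spans chr3:96282909-96293969, Fcgr2b (gene ID 14130) chr1:170960558-170976071, Fcgr4 (gene ID 246256) chr1:171018926-171029761 and Fcgr3 (gene ID 14131) chr1:171051169-171065915. The 250 bases before the annotated start of each gene are shown because the receptors divided into 2 that differed between libraries by more than 1.2-fold and 2 that did not. The division is narrow for Fcgr4, which by the count used below passed the limit only with shear, at 1.21-fold. The bases are printed 5′ to 3′ on the strand of the gene, from the RefSeq promoter table of GRCm38.p6, which holds all 4 genes. Capitals mark matches to a gamma interferon activation site (GAS, TTCNNNGAA), a core of the PU.1 motif (GAGGAA, read on either strand) and a core of the interferon-stimulated response element (ISRE, GAAA, then any 2 bases, then GAAA, read on either strand). The table gives Fcgr3 2 nearby starts, of which the more upstream is used, and both lie inside the annotated span of the gene, which a longer transcript extends.
Fcgr1, chr3:96293970-96294219, minus strand: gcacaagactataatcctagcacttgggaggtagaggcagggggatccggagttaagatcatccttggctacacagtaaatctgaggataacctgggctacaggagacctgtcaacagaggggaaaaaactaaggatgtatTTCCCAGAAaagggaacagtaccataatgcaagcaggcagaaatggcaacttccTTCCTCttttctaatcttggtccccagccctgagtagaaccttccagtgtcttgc
Fcgr4, chr1:171018676-171018925, plus strand: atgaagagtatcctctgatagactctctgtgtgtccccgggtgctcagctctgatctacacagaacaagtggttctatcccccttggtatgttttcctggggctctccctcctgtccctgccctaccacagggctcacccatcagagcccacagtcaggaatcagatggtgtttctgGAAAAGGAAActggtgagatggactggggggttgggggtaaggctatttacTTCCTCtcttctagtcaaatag
Fcgr3, chr1:171059404-171059653, minus strand: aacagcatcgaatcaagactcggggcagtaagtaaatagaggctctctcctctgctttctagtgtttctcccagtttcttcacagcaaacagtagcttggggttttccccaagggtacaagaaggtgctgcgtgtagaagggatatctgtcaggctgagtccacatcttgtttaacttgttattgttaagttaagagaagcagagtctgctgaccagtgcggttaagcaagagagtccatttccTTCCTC
Fcgr2b, chr1:170976072-170976321, minus strand: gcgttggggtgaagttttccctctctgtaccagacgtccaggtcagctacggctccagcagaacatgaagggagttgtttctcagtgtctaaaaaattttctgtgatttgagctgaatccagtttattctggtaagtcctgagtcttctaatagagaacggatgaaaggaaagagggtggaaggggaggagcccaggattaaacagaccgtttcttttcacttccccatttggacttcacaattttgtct

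The Fcgr1 window held 1 GAS match, TTCCCAGAA, starting 109 bases before the start, and 1 PU.1 match 55 to 50 bases before it. The Fcgr4 window held 1 ISRE core, 73 to 64 bases before the start, and 1 PU.1 match at 22 to 17 bases. In the Fcgr3 window the single match was a PU.1 core in the last 6 bases before the start, and the Fcgr2b window held none of the 3 letter patterns. Of 32817 RefSeq promoter windows of the same length, 7.01% held the GAS letters, 23.3% the PU.1 letters and 2.97% the ISRE letters. Both GAS and PU.1 letters were found in 1.62% of windows. A match is a description of the letters and not evidence of binding. No match in a window of this length says nothing of the factor.

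A second pair of sequences is shown because it bears on how far Fcgr2b and Fcgr3 could be measured apart. Their transcripts share an identical run of 129 bases in the coding sequence, of which 102 bases lie in the third exon of each gene and 27 in the next exon. The part in the third exon is printed in capitals from the GENCODE transcripts (GRCm38), with the 10 bases before it in lower case. Of those bases only the last differs between the genes, so their likeness does not end with the identical run.
Fcgr2b, chr1:170967980-170968091, minus strand: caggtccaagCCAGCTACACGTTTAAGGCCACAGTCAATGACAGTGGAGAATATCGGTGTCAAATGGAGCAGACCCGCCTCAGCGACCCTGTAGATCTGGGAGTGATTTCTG
Fcgr3, chr1:171057691-171057802, minus strand: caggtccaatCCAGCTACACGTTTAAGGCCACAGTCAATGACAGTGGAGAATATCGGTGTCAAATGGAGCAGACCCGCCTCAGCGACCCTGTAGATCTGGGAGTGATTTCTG

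Of all windows of 50 bases in the Fcgr3 transcript, 12.8% occur unchanged in Fcgr2b, and 3.53% of windows of 100 bases do. Fcgr1 and Fcgr4 shared no window of 50 bases with another receptor, and their longest identical runs with one were 13 and 14 bases. The levels of Fcgr2b and Fcgr3 are therefore uncertain where the counting had to divide shared fragments, and their sum is given beside them. An antisense gene, Gm38204, is annotated over the start of Fcgr2b on the opposite strand, and the treatment of strand is not given in the sources used here, so fragments of that overlap cannot be told apart.

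The 4 receptors were present at very different levels, given in FPKM, fragments scaled to transcript length and library size. Fcgr3, the low-affinity activating receptor CD16, was the most abundant, at 310.2 FPKM in sheared Ift88 shRNA cells, 327 in sheared control cells and 336 in static control cells. Fcgr2b, the inhibitory receptor CD32, was at 78.8 FPKM in sheared Ift88 shRNA cells, 77.9 in sheared control cells and 82.6 in static control cells. Both were close to level across the libraries, with the static library highest for each.

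Fcgr4, an activating receptor of intermediate affinity, was at 19.5 FPKM in sheared Ift88 shRNA cells, 19.3 in sheared control cells and 23.5 in static control cells. The 2 sheared libraries were nearly equal and the static library stood above them. Fcgr1, the high-affinity receptor CD64, was at 3.49 FPKM in sheared Ift88 shRNA cells, 4.52 in sheared control cells and 5.86 in static control cells. All 3 libraries differed for Fcgr1, the sheared Ift88 shRNA library being the lowest. By mean FPKM over the libraries, Fcgr3 ranked 226 and Fcgr1 7779 among all genes of the table.

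**Figure D1:**
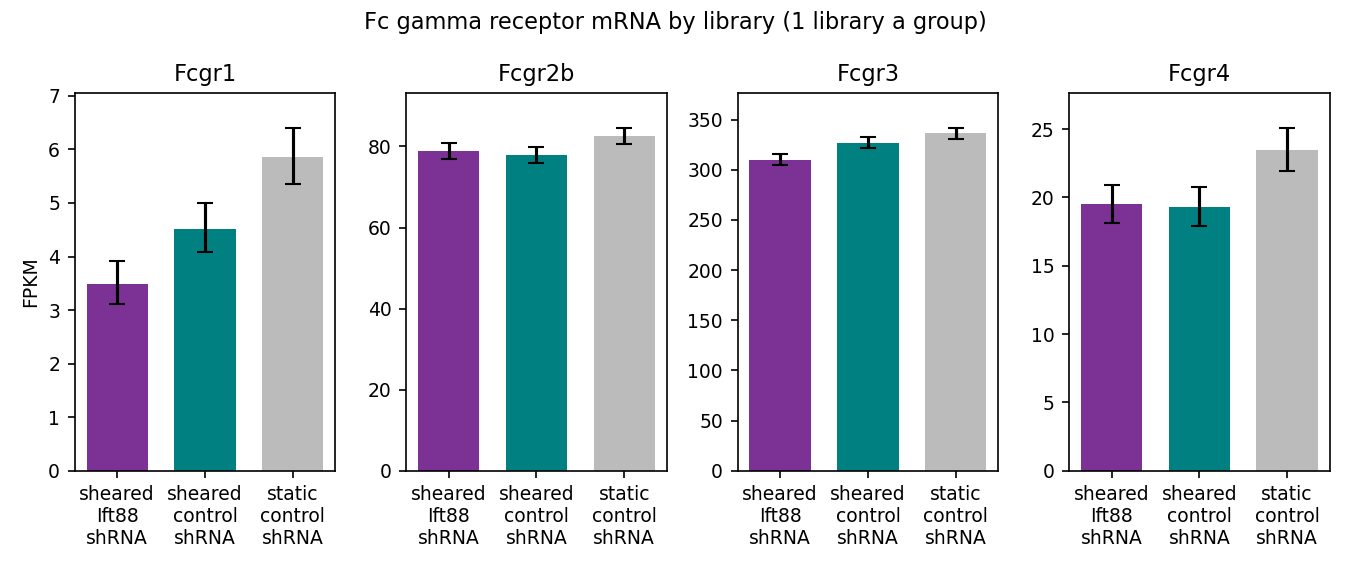
FPKM of each receptor in the sheared Ift88 shRNA, sheared control and static control libraries, with 1 panel a gene and separate vertical axes from 0. Bars are single libraries and error bars are 95% Poisson counting intervals from estimated fragments. Fcgr1 has 3 separate levels (3.49, 4.52 and 5.86 FPKM from left to right), while Fcgr2b stays between 77.9 and 82.6 FPKM.

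The order of the levels was Fcgr3, Fcgr2b, Fcgr4, Fcgr1 in every library, and no 2 neighbours in that order had overlapping counting intervals. Fcgr3 made up 75.3% of the summed FPKM of the family in sheared Ift88 shRNA cells, 76.3% in sheared control cells and 75.02% in static control cells. Fcgr1 made up 0.848%, 1.05% and 1.31% in the same order of libraries. The smallest step between neighbours was that from Fcgr4 to Fcgr2b in static cells, where Fcgr2b was 3.52 times as abundant.

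Estimated depth was close to equal, at 35000000 fragments for the sheared Ift88 shRNA library, 35200000 for the sheared control and 34700000 for the static control. The Fcgr1 values rest on an estimated 295, 383 and 490 fragments in that order, and the Fcgr4 values on 734, 731 and 877. Ift88, the targeted gene, was at 1.197 FPKM in sheared Ift88 shRNA cells, against 2.71 in sheared control cells and 2.98 in static control cells, so it was lowest in the library labelled as its knockdown. With 1 library a group no p-value can be given and no difference has a replicate check. Brackets hold 95% Clopper-Pearson intervals of the FPKM ratio, which cover counting error only and not the variation between cultures. Differences are counted when they reach 1.2-fold on the scale of log2(FPKM + 1). Log2 ratios are given on that scale, so they are not the log2 of the FPKM ratio beside them. The count is among the 10358 genes whose mean FPKM was 1 or more, and all 4 receptors passed that filter.

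Shear was examined by setting sheared control cells against static control cells. All 4 receptors were lower in the sheared library, and the median log2 ratio of all genes kept was also just below 0 (-0.011). Fcgr1 and Fcgr4 were lower by more than 1.2-fold and Fcgr3 and Fcgr2b by less. Thus 2 of 4 receptors were counted as lower, where 2.26% of all genes were, and 0 of 4 as higher, where 1.94% were. Fcgr1 had a ratio of 0.771 (0.672 to 0.883) and ranked 135 from the lowest of 10358 genes by log2 ratio, which was -0.31. Fcgr4 had a ratio of 0.822 (0.744 to 0.907), a log2 ratio of -0.27 and rank 221. Its fold of 1.21 on the counting scale lies at the edge of the limit, and with libraries scaled by their median ratio it was not counted (log2 ratio -0.26).

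Fcgr2b and Fcgr3 lay within the bulk of genes in the shear comparison. Fcgr2b had a ratio of 0.944 (0.912 to 0.977) and 25.4% of genes had a log2 ratio as low or lower. Fcgr3 had a ratio of 0.973 (0.9503 to 0.997), with 39.8% of genes as low or lower. Their summed level was 405 FPKM in sheared control cells against 419 in static control cells. The median log2 ratio of the 4 receptors was -0.18, against -0.011 for all genes kept.

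Markers of other cell types differed between the same 2 libraries. Neutrophils carry Fcgr3 and Fcgr4, and their listed markers summed to 25.1 FPKM in sheared Ift88 shRNA cells, 21.0 in sheared control cells and 53.1 in static control cells. Of 9 neutrophil markers in the table, 3 reached a mean FPKM of 1, and all 3 (S100a8, S100a9 and Ngp) were more than 1.2-fold lower in the sheared control than in the static library. S100a9, an abundant neutrophil calcium-binding protein, was at 6.66 FPKM in sheared control cells and 22.3 in static control cells, and Retnlg was listed at 0 in all libraries. Monocyte markers summed to 2.52, 2.51 and 6.52 FPKM in the order used above. Of the 4 listed only 1, Chil3, reached a mean FPKM of 1, at 1.46 FPKM in sheared control cells and 4.32 in static control cells. Ccr2, below that level, was slightly higher in sheared control cells (0.287 FPKM) than in static control cells (0.273). The part of these cells in the Fcgr1 and Fcgr4 values was not tested, and in bulk RNA fewer cells of a type and less RNA per cell cannot be told apart.

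Of 10 macrophage markers, 2 were counted as lower in sheared control cells, the complement genes C1qa (29.1 FPKM in sheared control cells and 36.3 in static) and C1qb (30.04 and 38.5 in the same order). The other 8 were not counted, but 8 of the 10 lay below 0, with a median log2 ratio of -0.0996 against -0.011 for all genes. The mannose receptor gene Mrc1 had a ratio of 0.863, Adgre1 (F4/80) 0.879 and the integrin gene Itgam 0.918, while Csf1r, the receptor for MCSF, had 1.01 and Cd68 1.007. The part of macrophage content in the receptor values was not tested. The labelled cell type was checked on 10 osteoclast markers, of which 7 reached a mean FPKM of 1, while Calcr, Ocstamp and Oscar did not. Those 10 markers summed to 402 FPKM in sheared Ift88 shRNA cells, 330.2 in sheared control cells and 436 in static control cells. With shear 4 of the 7 were counted as lower and 1 as higher, so a lower level of osteoclast markers accompanied the lower Fcgr1 and Fcgr4. Dendritic cell markers summed to 141, 123 and 138 FPKM in the same order of libraries. Nearly all of that sum came from Cd74 (93.4, 81.0 and 90.1 FPKM), Itgax and H2-Aa. The other markers, Zbtb46, Ccr7 and Flt3, did not reach a mean FPKM of 1, and Flt3 was listed at 0 in all. The part of either cell type in the receptor values was not tested. No marker of B cells (6 listed), NK cells (6) or mast cells (6), which also carry Fc gamma receptors, reached that level. The B cell genes Ms4a1 and Pax5 were listed at 0 in all libraries.

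**Figure D2:**
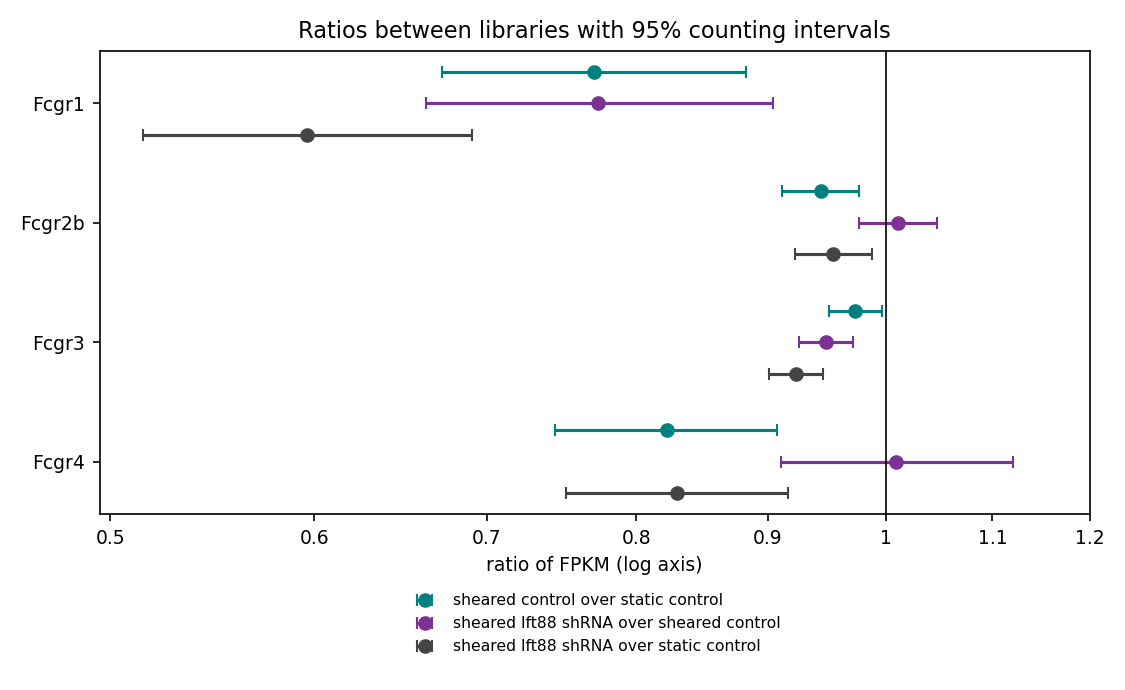
Ratio of FPKM between libraries for each receptor (horizontal log axis), with 95% counting intervals, for the 3 pairs of libraries. The 3 intervals of Fcgr1 lie below 1, whereas those of Fcgr2b and Fcgr4 include 1 in the pair of sheared libraries (ratios of 1.01 each).

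The knockdown was examined by setting sheared Ift88 shRNA cells against sheared control cells. Fcgr1 was lower with Ift88 shRNA, with a ratio of 0.773 (0.663 to 0.904), and the other 3 receptors differed by less than 1.2-fold. Thus 1 of 4 receptors was counted as lower, where 2.29% of all genes were, and 0 of 4 as higher, where 3.25% were. Fcgr1 ranked 186 from the lowest of 10358 genes, with a log2 ratio of -0.30. Fcgr3 had a ratio of 0.948 (0.925 to 0.971), with 21.8% of genes as low or lower.

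Fcgr2b had a ratio of 1.01 (0.976 to 1.05) and Fcgr4 a ratio of 1.01 (0.910 to 1.12), and both intervals include no difference. An interval that includes 1 does not show equal levels. The summed level of Fcgr2b and Fcgr3 was 389 FPKM with Ift88 shRNA, against 405 in the sheared control. Both this comparison and that of shear use the sheared control library, and an error in that library would move their ratios in opposite directions. The neutrophil markers S100a8, S100a9 and Ngp had ratios of 1.16 (0.923 to 1.48325), 1.26 (0.928 to 1.72) and 1.43 (0.929 to 2.26), and all 3 intervals include 1. By the 1.2-fold count 2 of the 3, S100a9 and Ngp, were higher with Ift88 shRNA, where 3.25% of all genes were. Of the 7 osteoclast markers, 4 were counted as higher with Ift88 shRNA and 0 as lower. Of 10 macrophage markers none was counted, while 7 lay above 0 and 3 below. Their median log2 ratio was 0.090, against 0.010 for all genes. The part of these cell types in the Fcgr1 value was not tested.

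Against the static control, the sheared Ift88 shRNA library differed most for Fcgr1. Its ratio was 0.596 (0.515 to 0.691). On the scale of log2(FPKM + 1) its log2 ratio was -0.61, rank 38 from the lowest of 10358 genes. Fcgr4 had a ratio of 0.829 (0.751 to 0.916), Fcgr3 of 0.923 (0.901 to 0.945) and Fcgr2b of 0.954 (0.922 to 0.987). By the same count 1 of 4 receptors was lower, where 4.48% of all genes were, and 0 of 4 higher, where 4.79% were. Fcgr4 was just inside the limit (log2 ratio -0.26) and was counted as well with a smaller pseudocount. This pair differs in both shear and shRNA, and it shares a library with each of the other pairs. In none of the 3 pairs did a receptor reach 2-fold. Of all genes, 0.116% were at least 2-fold higher and 0.164% lower with shear, 0.0772% higher and 0.0676% lower with the knockdown, and 0.0869% higher and 0.126% lower in the pair that differs in both.

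**Figure D3:**
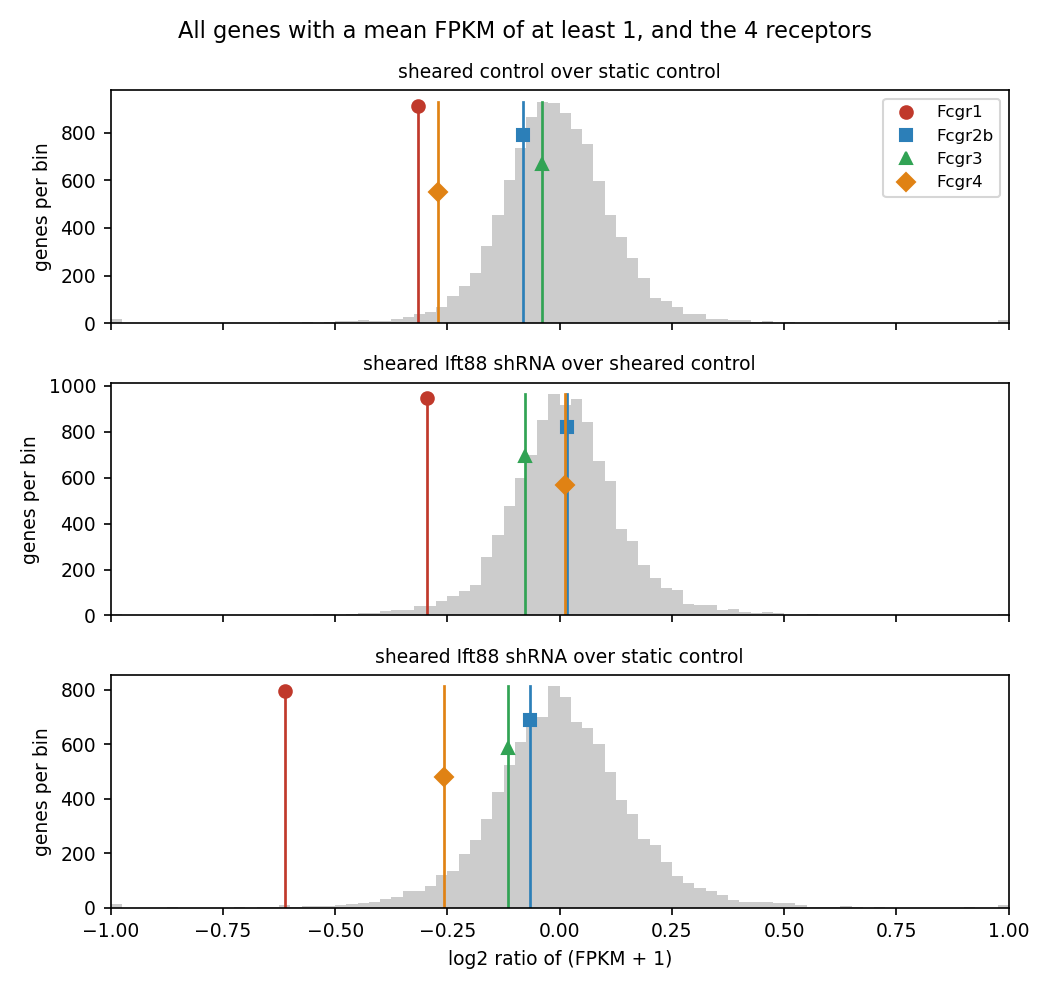
Number of genes by log2 ratio of (FPKM + 1) in bins of 0.025 for the 3 pairs of libraries, over the 10358 genes kept. Lines with symbols mark the 4 receptors, and genes beyond the axis are placed in the end bins. Fcgr1 lies in the lower tail of each panel (log2 ratios of -0.31, -0.30 and -0.61), and Fcgr3 and Fcgr2b lie within the central mass.

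The balance of activating to inhibitory receptor mRNA was nearly level. Fcgr1, Fcgr3 and Fcgr4 together were 4.23 times the FPKM of Fcgr2b in sheared Ift88 shRNA cells, 4.503 times in sheared control cells and 4.43 times in static control cells. Because Fcgr3 supplies most of the activating sum, the lower Fcgr1 hardly enters this ratio. Within the activating group Fcgr4 was 5.58 times Fcgr1 in sheared Ift88 shRNA cells, 4.27 times in sheared control cells and 4.01 times in static control cells.

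Fcer1g, the gamma chain that the activating receptors need at the surface, lies on chromosome 1 (171229572 to 171234349) and was far more abundant than its receptors. Its level was 1078 FPKM in sheared Ift88 shRNA cells, 1071 in sheared control cells and 1029.7 in static control cells. It did not share the pattern of Fcgr1, with a ratio of 1.04 (1.02 to 1.06) for shear and 1.01 (0.986 to 1.03) for the knockdown. Per FPKM of activating receptor there were 3.24 of Fcer1g in sheared Ift88 shRNA cells, 3.05 in sheared control cells and 2.82 in static control cells.

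Other genes of the pathway were followed in 5 lists, of which none had a median past 1.2-fold in either comparison. Of 16 other Fc receptor genes, 6 reached a mean FPKM of 1, and none of the 6 was counted in the shear or the knockdown comparison. Their median log2 ratio was -0.088 for shear and 0.039 for the knockdown, against -0.011 and 0.010 for all genes. Fcrls, an Fc receptor-like gene, was at 4.84 FPKM in sheared control cells and 5.91 in static control cells. Its ratio of 0.818 (0.709 to 0.944) was close to the 0.822 of Fcgr4, which was counted. On the counting scale of log2(FPKM + 1) Fcrls was inside the limit (-0.24). Trim21, the cytosolic antibody receptor, was at 8.03 FPKM in sheared control cells and 9.23 in static control cells. Fcgrt, the neonatal Fc receptor that recycles immunoglobulin G, was at 23.6 FPKM in sheared Ift88 shRNA cells against 28.5 in sheared control cells. Its ratio was 0.828 (0.769 to 0.891), and only on the counting scale of log2(FPKM + 1) was it just inside the limit (-0.262). The T cell zeta chain gene Cd247 was at 2.48 FPKM against 2.28 and Fcrl1 at 1.96 against 1.74, in the same order.

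The activating signal list held 24 genes, all above the filter. In the shear comparison none was counted (8 above 0 and 16 below, median -0.016). The adaptor gene Blnk was at 45.1 FPKM in sheared control cells against 53.4 in static control cells, Lcp2 at 15.4 against 17.5, and the exchange factor gene Vav3 at 12.2 against 13.8. In the knockdown comparison 2 were counted as higher and 1 as lower, with a median of 0.064. Src, the founding kinase of its family and required for resorption in mouse osteoclasts, was at 26.8 FPKM in sheared Ift88 shRNA cells against 19.1 in sheared control cells, a ratio of 1.40 (1.33 to 1.477). Lat, an adaptor for phospholipase C gamma, had 28.3 against 21.5 FPKM and a ratio of 1.32 (1.199 to 1.44). Vav2, an exchange factor gene, had 8.64 against 10.9 FPKM and a ratio of 0.793 (0.741 to 0.848). Src and Lat were thus higher in the pair of libraries in which Fcgr1 was lower.

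Among 16 inhibitory enzymes and receptors, 1 was counted as lower with shear and none with the knockdown, with medians of -0.074 and 0.075. Cd300lf, an inhibitory receptor gene of myeloid cells, was at 6.27 FPKM in sheared control cells against 7.82 in static control cells, a ratio of 0.801 (0.697 to 0.921). Cbl, a ubiquitin ligase gene, was at 12.5 against 13.8 FPKM and Pirb, a paired immunoglobulin-like receptor gene, at 233 against 253, in the same order. In sheared Ift88 shRNA cells against sheared control cells, the adaptor gene Dok1 was at 41.5 against 48.9 FPKM, the phosphatase gene Ptpn6 (SHP-1) at 164 against 141, and Dok3 at 23.7 against 20.6. The most abundant member, Sirpa, was at 642 FPKM in sheared Ift88 shRNA cells, 669 in sheared control cells and 686 in static control cells.

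No gene of the 17 in the phagocytosis and oxidase list was counted in either comparison, and the medians were -0.042 for shear and 0.025 for the knockdown. Cyba and Cybb encode the membrane subunits of the phagocyte oxidase. Cyba was at 1780.2 FPKM in sheared Ift88 shRNA cells, 1780.3 in sheared control cells and 1634 in static control cells, and Cybb at 138, 146 and 160.0 FPKM in that order. Myo10, an unconventional myosin gene, was at 14.2 FPKM in sheared control cells against 15.7 in static control cells. The actin nucleator subunit gene Arpc5 was at 180.3 FPKM in sheared Ift88 shRNA cells against 200.1 in sheared control cells, the oxidase subunit gene Ncf4 at 228 against 213 and Rac2 at 139 against 131.

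Interferon gamma raises Fcgr1 in macrophages, and PU.1, encoded by Spi1, is needed for its expression. Of 18 genes in the list of this pathway and of myeloid factors, 15 passed the filter, with medians of -0.032 for shear and -0.015 for the knockdown. Gbp2, an interferon-inducible GTPase gene, was at 8.79 FPKM in sheared Ift88 shRNA cells, 9.94 in sheared control cells and 11.2 in static control cells, the order that Fcgr1 had, with ratios of 0.889 (0.807 to 0.977) for shear and 0.884 (0.798 to 0.978) for the knockdown.

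In that list 1 gene was counted in each comparison, and both were higher. The transcription factor gene Cebpb was at 71.1 FPKM in sheared control cells against 54.4 in static control cells, a ratio of 1.31 (1.24 to 1.38). Socs1, which inhibits JAK kinases, was at 2.76 FPKM in sheared Ift88 shRNA cells against 1.72 in sheared control cells, a ratio of 1.604 (1.32 to 1.97). Cebpa was at 80.01 against 90.2 FPKM in that pair. Spi1 was at 254 FPKM in sheared Ift88 shRNA cells, 241 in sheared control cells and 231 in static control cells, an order opposite to that of Fcgr1.

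**Figure D4:**
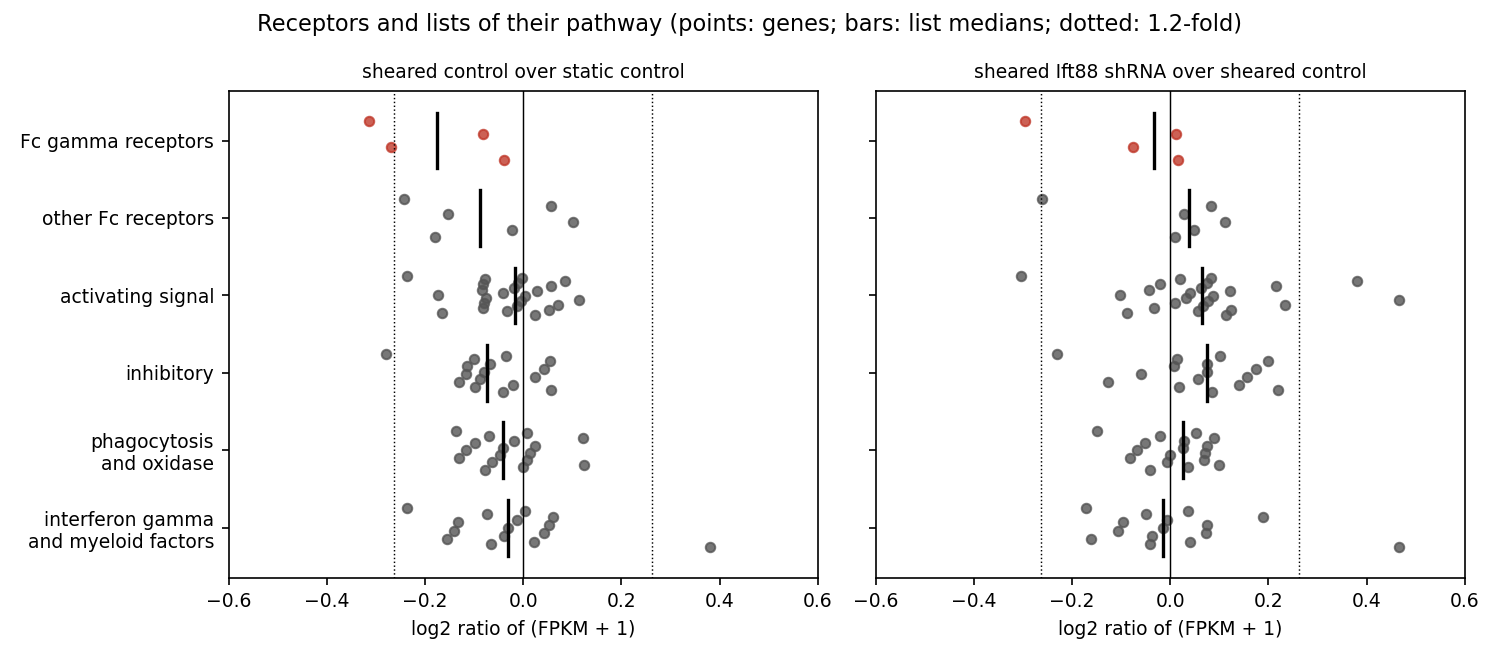
Log2 ratio of (FPKM + 1) for each gene kept in the family and in 5 pathway lists, for shear (left) and the knockdown (right). Points are genes, black bars are list medians and dotted lines mark 1.2-fold. The list medians lie between -0.088 and 0.075, and the receptor median is -0.18 for shear and -0.032 for the knockdown.

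For each receptor the genes with the most similar course over the libraries were sought. Likeness was measured as the Euclidean distance between log2(FPKM + 1) values centred on each gene, over 3 libraries and 7549 genes averaging 5 FPKM or more. Fcgr1 itself averaged 4.62 FPKM, so genes at its own level and below were not compared with it. Within a distance of 0.05 of Fcgr1 lay 3 genes, Siglec1, Arhgap4 and Syn1. Siglec1, the sialic acid-binding receptor CD169 of macrophages, was nearest (distance 0.0047), at 6.21 FPKM in sheared Ift88 shRNA cells, 7.88 in sheared control cells and 10.001 in static control cells. Around Fcgr4 lay 51 genes, led by AI607873, Tbc1d4 and Ifi202b, with Ifi202b at 70.2, 70.6 and 84.9 FPKM in that order of libraries. Around Fcgr2b lay 1162 genes, led by Ppp1r18, Sbno1 and Meis3, and around Fcgr3 888, led by Ube2d3, Npm1 and Rnf40. With 3 libraries such a match is a description of these values.

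Fcgr4 lies between Fcgr2b and Fcgr3, 42855 bases from the first and 21408 from the second, both of which differed little between libraries. The nearest measured genes on either side of the 3 receptors on chromosome 1 had low levels, with Fcrla at 0.019 FPKM or less in each library and 1700009P17Rik (now Cfap126) at 1.07 FPKM in sheared Ift88 shRNA cells, 0.964 in sheared control cells and 0.678 in static control cells. Next to Fcgr1, the histone gene Hist2h2bb was at 3.09 FPKM in sheared Ift88 shRNA cells, 2.92 in sheared control cells and 3.52 in static control cells. On its other side Terc was at 0.131 FPKM in sheared Ift88 shRNA cells and listed at 0 in the other 2 libraries.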

How the data were processed

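FPKM values of 24067 genes in 3 libraries were used as deposited by the authors. Cufflinks 2.2.1, TopHat2 2.0.13, Trimmomatic 0.32, bcl2fastq 1.8.4 and the mm10 build are listed in the submitters' processing notes, and the labels' protocols name the TruSeq mRNA kit. No setting of these tools, strand included, is stated. The members and lists were chosen with earlier results of these data known.

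Library depth was inferred from the steps between low values in 14111 genes with 1 transcript of at least 1000 bases, with a common length offset of 180 bases. Of values of at most 10 fragments, 63.5% to 64.3% per library were whole within 0.1, so no count test across genes was run, and the estimated fragments served only for Poisson and Clopper-Pearson intervals. Ratios are of FPKM as deposited, and log2 ratios are differences of log2(FPKM + 1) over the 10358 genes averaging 1 FPKM or more, counted past 1.2-fold. Named were the 4 receptors, Ift88, Fcer1g, nearest neighbours and the 3 genes most like each receptor. From each list the 3 largest differences per comparison and the most abundant gene were added, except for a result that is not reported here. Macrophage, monocyte, neutrophil and osteoclast genes were chosen after their values were seen. Of 149 listed symbols, 1 was not matched. Gene IDs gave RefSeq coordinates for 23987 genes, and matched transcripts gave lengths for 23551. The depth and ratio steps were tested on simulated whole Poisson counts. That simulation divided no fragments between transcripts or genes, so it does not cover the low values that were not whole. Python 3.11.15, pandas 2.3.3 and scipy 1.17.1 were used.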

Additional observations from a re-analysis of the deposited data

How the results depend on the processing

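Each result was recomputed with a pseudocount of 0.1 or 0.5, equal library totals, median-ratio scaling, centring in 20 bins of transcript length, Fcgr2b and Fcgr3 summed, and other fold limits. Of 69 receptor log2 ratios so obtained, 67 stayed within the counting interval of the first value and 0 of those past 1.2-fold turned sign. That tally includes the Fcgr1 and Fcgr4 values of the summed setting, which could not change. Equal library totals and median-ratio scaling move all genes of a pair by nearly the same small amount. Fcgr1 stayed between -0.37 and -0.30 for shear and between -0.36 and -0.27 for the knockdown. The exceptions were Fcgr3 for shear after length centring (-0.078) and Fcgr2b for the knockdown when replaced by the sum with Fcgr3 (-0.058, against 0.016 for Fcgr2b alone). Counts of lower receptors changed as follows. For shear the count was 1 with median-ratio scaling, and 0 past 1.5-fold or 2-fold. For the knockdown it was 0 past 1.5-fold or 2-fold. For sheared Ift88 shRNA against static control it was 2 with a pseudocount of 0.1 or 0.5, with length centring or past 1.1-fold, and 0 past 2-fold. A stricter limit counts fewer genes by its construction. Where scaling, pseudocount or length centring changed a count, the receptor concerned was Fcgr4, which lay at the edge of the limit. Its log2 ratio for shear was -0.270, and -0.259 with median-ratio scaling. The cause of the difference in scale between libraries was not tested. Without a filter the share of all genes past 1.2-fold was 1.07% higher and 1.35% lower for shear, 1.8% and 1.18% for the knockdown, and 2.45% and 2.3% for the third pair. Among genes averaging 5 FPKM or more it was 1.47% lower for shear and 2.11% higher for the knockdown. The filter was changed for this share only, so the counts of receptors could not change with it. Fcgr1 averaged 4.62 FPKM and would not have passed a filter of 5 FPKM. No paired analysis was possible because each group had 1 library, and no replicate could be left out. Fcgr1 rests on an estimated 295 to 490 fragments per library, which sets the width of its intervals.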
